A study of Homo sapiens with 3 samples.

Results

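The genes described here are MSH6, MSH3, PMS2, PMS1 and MLH3, 5 DNA mismatch repair genes taken by name from a table of 58735 genes. All 5 were found, and all 5 had a mean level of at least 1 FPKM (fragments per kilobase of gene, scaled to a size set for each library), the minimum for the 12605 genes compared. RNA sequencing had been done on 1 library from each of 3 cultures. The labels name them HCT116, which is a line from a human colorectal carcinoma and is known to lack working mismatch repair. The first culture overexpressed ZEB1 K80R, a mutant of the zinc-finger repressor ZEB1. The second overexpressed wild-type ZEB1, and the third carried an empty vector. The labels give all 3 the treatment "control", the same medium with 10% serum, and no time, clone or promoter of the construct. There were no replicates, so the variation between cultures is unknown, and no p-value is given. Brackets after a ratio hold its exact 95% counting interval, which covers counting error only.

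Mismatch repair removes bases that were paired wrongly during replication, and small loops left by slippage in repeats. MutS complexes find the error and MutL complexes recruit and direct the cut from which the new strand is removed and resynthesised. MSH6 and MSH3 are alternative subunits of the MutS complexes. The MSH6 form binds mainly single mismatches and very short loops, and the MSH3 form binds mainly longer loops. PMS2, PMS1 and MLH3 are alternative subunits of the MutL complexes. PMS2 carries the main cutting activity, MLH3 is best known for its part in meiotic crossovers, and PMS1 has no well established part in repair. Loss of mismatch repair gives the microsatellite instability seen in part of colorectal cancers.

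The libraries had read sums of 13479517 for ZEB1 K80R, 14322537 for wild-type ZEB1 and 14764535 for empty vector. The library sizes implied by the FPKM values were 13321338, 13795840 and 15886593 in the same order. The read sums were 1.012, 1.038 and 0.9294 times these sizes, so the deposited scale differs from a scale by read sums. Ratios between libraries below use the implied sizes unless another scale is named. ZEB1 itself stood at 10.3 FPKM with K80R, 9.83 with wild-type ZEB1 and 5.66 with empty vector. Of 12 markers of colon epithelium, 9 had 0 reads in every library, among them EPCAM, CDH1 and CDX2, and none reached 1 FPKM, which goes against the labelled tissue. Of 12 markers of other cells, 3 reached 1 FPKM in some library (NEFL, PDGFRB and COL1A1), and the summed level of the 12 was 53.3, 49.2 and 75.2 FPKM in ZEB1 K80R, wild-type ZEB1 and empty vector. Nearly all of each sum was NEFL, at 50.03, 45.03 and 71.95 FPKM in the same order. The defining leukocyte markers PTPRC and CD3E had 0 reads throughout. Mitochondrial genes took 9.75% of the reads with K80R, 7.77% with wild-type ZEB1 and 1.29% with empty vector. The empty vector library held 350 genes with exactly 1 read, where the ZEB1 K80R library held 2902 and the wild-type ZEB1 library 2705. Each comparison with empty vector carries these differences, and their part in the results below was not tested.

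The stretches of DNA around the gene starts are shown first, because ZEB1 is a repressor known to bind E-boxes with the letters CAGGTG, or with A as the last of them. Each runs from 250 bases before to 50 after a RefSeq start (GRCh38.p14), 5′ to 3′ in the sense of the gene. Capitals mark every match, on either strand, to an E2F motif (TTTCCCGC, TTTCGCGC, TTTGCCGC or TTTGGCGC), an SP1 motif with the letters GGGCGG, a box named for its letters CCAAT, the ZEB1 E-box or an NF-κB motif. Adjoining matches of different motifs run together in capitals. The windows are those of MSH6 (chr2:47782895-47783194, plus strand, the most upstream of 4 listed), PMS2 (chr7:6009057-6009356, minus strand, the most upstream of 2) and PMS1 (chr2:189784200-189784499, plus strand).
MSH6: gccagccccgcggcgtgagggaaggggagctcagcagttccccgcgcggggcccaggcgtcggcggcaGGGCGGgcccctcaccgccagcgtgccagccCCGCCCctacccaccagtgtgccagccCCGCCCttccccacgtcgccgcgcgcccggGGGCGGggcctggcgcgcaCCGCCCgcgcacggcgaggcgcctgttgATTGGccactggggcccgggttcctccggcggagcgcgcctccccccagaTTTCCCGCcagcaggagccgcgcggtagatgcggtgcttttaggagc
PMS2: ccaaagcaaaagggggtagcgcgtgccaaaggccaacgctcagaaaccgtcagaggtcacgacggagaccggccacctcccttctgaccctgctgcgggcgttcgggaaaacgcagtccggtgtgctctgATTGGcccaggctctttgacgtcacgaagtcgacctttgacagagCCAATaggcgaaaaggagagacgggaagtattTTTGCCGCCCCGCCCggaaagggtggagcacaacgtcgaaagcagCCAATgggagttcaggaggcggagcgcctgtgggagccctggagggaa
PMS1: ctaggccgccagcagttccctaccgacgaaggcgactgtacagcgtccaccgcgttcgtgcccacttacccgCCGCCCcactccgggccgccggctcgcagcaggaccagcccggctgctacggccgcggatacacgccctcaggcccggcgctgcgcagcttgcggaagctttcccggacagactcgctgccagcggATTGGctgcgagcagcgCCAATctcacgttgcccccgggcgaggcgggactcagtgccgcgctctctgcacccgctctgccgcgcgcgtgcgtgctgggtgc

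None of these 3 windows holds the ZEB1 E-box or the NF-κB letters, which 28.1% and 1.9% of all 35116 promoter windows hold. The MSH6 window has an E2F match starting 3 bases after the start, 5 SP1 matches and 1 CCAAT box. The PMS2 window has 1 E2F match that runs into 2 overlapping SP1 matches, and 3 CCAAT boxes. The PMS1 window has 1 SP1 match and 2 CCAAT boxes and no E2F match. E2F letters were in 3.3% of all windows, SP1 letters in 45% and CCAAT letters in 34.6%. The MLH3 window holds none of the 5 motifs, and its 51.0% G and C lie below the 78.0% of MSH6 and the median of 58.7% over all windows. The other 3 MSH6 windows, which start further downstream, hold 1 E-box match each, 2 of them the same CAGGTG in overlapping windows. A match is a description of letters and not of binding.

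MSH6 was the member with the highest level in every library and the one that differed most between them. MSH6 (ENSG00000116062; GRCh38, chromosome 2, 47695530 to 47810101, plus strand) stood at 9.59 FPKM from 1405 reads with ZEB1 K80R, 7.39 FPKM from 1120 reads with wild-type ZEB1 and 12.8 FPKM from 2236 reads with empty vector. Both overexpression libraries were thus below empty vector, and K80R lay between the other two. K80R stood to wild type as 1.30 (1.2 to 1.41). The ratio of wild type to empty vector was 0.577 (0.536 to 0.620), and that of K80R to empty vector was 0.749 (0.701 to 0.801). These comparisons share libraries, so the 3 ratios are not independent of each other.

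MSH3, the other MutS subunit, had nearly the same deposited level in all 3 libraries. MSH3 (ENSG00000113318; chromosome 5, 80654648 to 80876460, plus strand) stood at 4.19 FPKM from 263 reads with ZEB1 K80R, 4.17 FPKM from 271 reads with wild-type ZEB1 and 4.01 FPKM from 300 reads with empty vector. K80R stood to wild type as 1.01 (0.845 to 1.195), with a ratio of wild type to empty vector of 1.04 (0.879 to 1.23) and of K80R to empty vector of 1.05 (0.883 to 1.24). On the deposited scale the counting intervals leave room for differences of up to about 1.24-fold. With the libraries scaled to the same sum of FPKM, the differences of log2(FPKM + 1) from empty vector were −0.31 with K80R and −0.33 with wild-type ZEB1, so the comparison with empty vector depends on the scale.

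**Figure D1:**
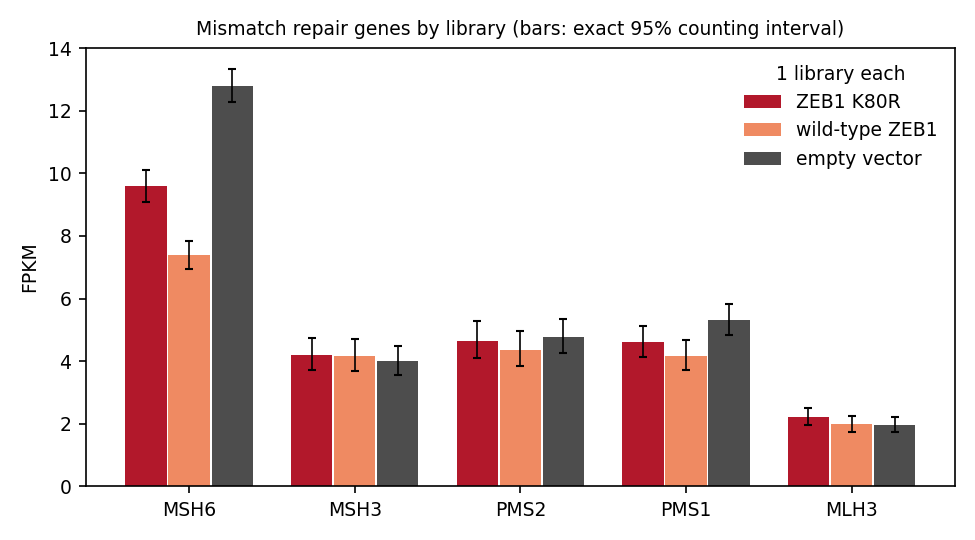
FPKM of the 5 mismatch repair genes in the 3 libraries, 1 bar per library, with exact 95% Poisson intervals of the reads as error bars. MSH6 stands at 9.59 with ZEB1 K80R, 7.39 with wild-type ZEB1 and 12.8 with empty vector, while MSH3 lies between 4.01 and 4.19.

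Among the MutL subunits, PMS1 was lower with either form of ZEB1 than with empty vector. On the deposited scale PMS2 and MLH3 were not separable between libraries at these read counts. PMS1 (ENSG00000064933; chromosome 2, 189784085 to 189877629, plus strand) stood at 4.61 FPKM from 335 reads with ZEB1 K80R, 4.17 from 314 reads with wild-type ZEB1 and 5.32 from 461 reads with empty vector. The ratio between K80R and wild type was 1.105 (0.944 to 1.29), that of wild type to empty vector 0.784 (0.677 to 0.907), and that of K80R to empty vector 0.867 (0.751 to 0.9997). The last interval ends just below 1.

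PMS2 (ENSG00000122512; chromosome 7, 5973239 to 6009125, minus strand) stood at 4.65 FPKM from 244 reads with ZEB1 K80R, 4.36 from 237 reads with wild-type ZEB1 and 4.78 from 299 reads with empty vector. The ratio between K80R and wild type was 1.07 (0.888 to 1.28), and that of wild type to empty vector was 0.913 (0.766 to 1.09). K80R against empty vector gave 0.973 (0.818 to 1.16). MLH3 (ENSG00000119684; chromosome 14, 75013764 to 75051532, minus strand) was the lowest member, at 2.21 FPKM from 246 reads with K80R, 1.98 from 229 reads with wild-type ZEB1 and 1.96 from 260 reads with empty vector. Its ratios were 1.11 (0.925 to 1.34) for K80R to wild type, 1.01 (0.846 to 1.22) for wild type to empty vector and 1.13 (0.944 to 1.35) for K80R to empty vector. All these intervals of PMS2 and MLH3, on the deposited scale, include 1. With the libraries scaled to the same sum of FPKM, the differences of log2(FPKM + 1) from empty vector were −0.40 with K80R and −0.49 with wild-type ZEB1 for PMS2. For MLH3 they were −0.18 and −0.30, so these comparisons with empty vector depend on the scale too.

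**Figure D2:**
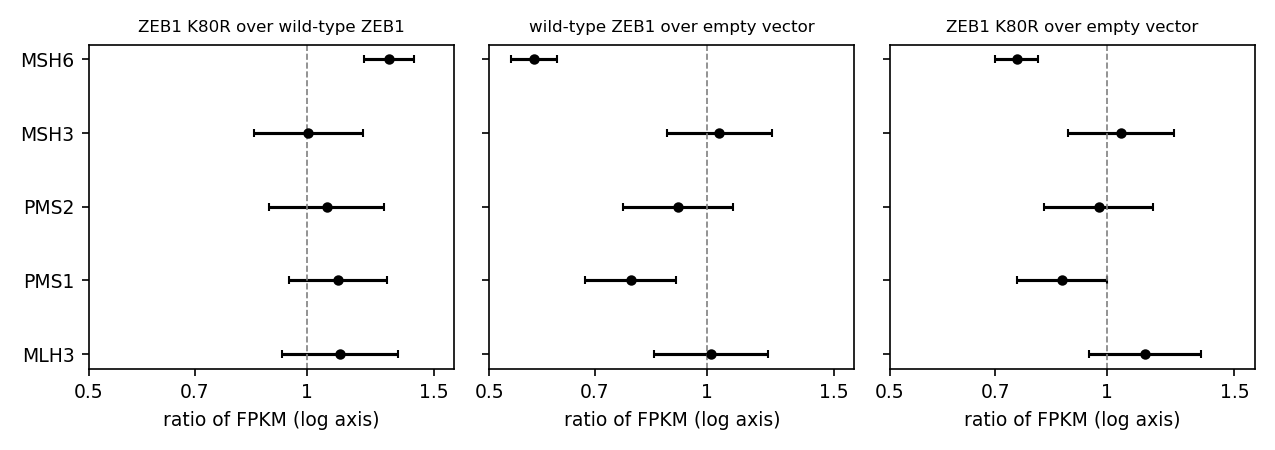
Ratio of FPKM of each gene in the 3 comparisons, on a log axis, with exact 95% counting intervals as bars and a dashed line at 1. MSH6 lies off the line in every panel, at 1.30, 0.577 and 0.749 from left to right, and PMS1 lies below it in the comparisons with empty vector.

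Set against all genes, the difference of MSH6 was toward the edge of the distribution but not rare. In wild-type ZEB1 against empty vector, MSH6 was the single member past 1.5-fold on the scale of FPKM + 1, a ratio of 0.608. On that scale 11.1% of the 12605 genes were at least 1.5-fold lower, 14.2% higher and 25.3% past it in either direction, so 1 of 5 is near the background. A difference of log2(FPKM + 1) at or below the −0.72 of MSH6 was found in 7.51% of genes. No member passed 1.5-fold for K80R against wild type, where 9.60% of genes did, 4.42% higher and 5.18% lower, nor for K80R against empty vector, where 25.6% did, 12.6% higher and 13.0% lower. The counting interval left out 1 for 1 of 5 members in K80R against wild type (53.7% of all genes), for 2 of 5 in wild type against empty vector (68.9%) and for 2 of 5 in K80R against empty vector (68.5%). The members' shares were below those of all genes in each comparison, and a gene with more reads has a narrower interval.

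The median difference of log2(FPKM + 1) over the 5 members was 0.10 for K80R against wild type, with a range of 0.01 to 0.34, beside a median of −0.02 over all 12605 genes. All 5 members were above 0 in that comparison on the deposited scale, whereas MSH3 was at −0.00 with scaling by the median of ratios and PMS2 at −0.10 with the reads of its copies. For wild type against empty vector the members' median was −0.11, with a range of −0.72 to 0.05, beside 0.01 over all genes, whose quartiles were −0.30 and 0.35. For K80R against empty vector it was −0.03, with a range of −0.38 to 0.12, beside 0.01 over all genes. Of the 5 members, MSH6 alone lay outside the quartiles of all genes, and did so in each comparison.

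The scale between libraries bears on every comparison with empty vector. The deposited values summed to 303683 FPKM with ZEB1 K80R, 307544 with wild-type ZEB1 and 223875 with empty vector. With each library scaled to the mean of these sums, the median difference over 12665 genes from empty vector was −0.36 with K80R and −0.37 with wild-type ZEB1. The genes past 1.5-fold were then 750 higher and 4204 lower for wild type against empty vector, in place of 1786 and 1400, and 695 higher and 4173 lower for K80R against empty vector, in place of 1592 and 1640. K80R against wild type was less affected, with 553 higher and 580 lower, in place of 557 and 653. With mitochondrial genes left out of the sum, the medians were 0.11 for K80R against wild type, −0.05 for wild type against empty vector and 0.07 for K80R against empty vector. The split was then 879 higher and 376 lower for K80R against wild type and 1951 higher and 1389 lower for K80R against empty vector. MSH6 was at −1.14 with wild-type ZEB1 and −0.79 with K80R against empty vector at the same sum, and at −0.79 and −0.31 without mitochondrial genes in it. MSH6 and PMS1 were below empty vector in every scaling run.

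**Figure D3:**
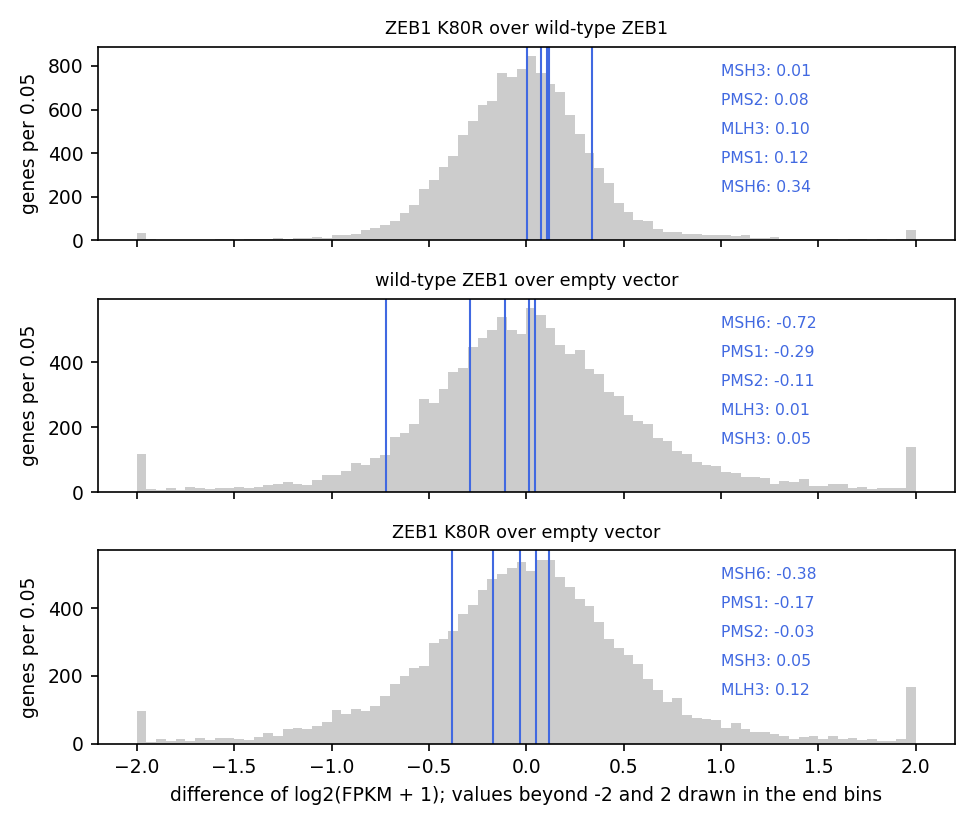
Histograms of the difference of log2(FPKM + 1) over the 12605 genes compared, with blue lines at the 5 members and their values written beside. MSH6 lies at 0.34, −0.72 and −0.38 from top to bottom, and the other 4 members lie between −0.29 and 0.12.

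The balance between the MutS subunits can be read within each library, where the scaling between libraries has no part. The ratio of MSH6 to MSH3 in FPKM was 2.29 (2.01 to 2.62) with ZEB1 K80R, 1.77 (1.55 to 2.03) with wild-type ZEB1 and 3.19 (2.83 to 3.61) with empty vector. This ratio was 1.29 (1.07 to 1.57) times as high with K80R as with wild-type ZEB1. Relative to empty vector it was 0.555 (0.462 to 0.666) with wild-type ZEB1 and 0.717 (0.597 to 0.861) with K80R. None of these 3 intervals includes 1, and MSH6 was the larger of the pair in every library.

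Among the MutL subunits, the ratio of PMS1 to MLH3 was lower with either form of ZEB1 than with empty vector. The ratios with PMS2 were not separable between libraries on the reads assigned to PMS2 itself. The pair of PMS1 and MLH3 was not among the planned pairs. Its ratio was 2.09 (1.77 to 2.47) with ZEB1 K80R, 2.10 (1.77 to 2.50) with wild-type ZEB1 and 2.72 (2.33 to 3.18) with empty vector. Relative to empty vector it was 0.773 (0.611 to 0.978) with wild-type ZEB1 and 0.768 (0.610 to 0.967) with K80R, and K80R over wild type was 0.993 (0.778 to 1.27). PMS2 to PMS1 was 1.01 (0.852 to 1.19) with ZEB1 K80R, 1.05 (0.880 to 1.24) with wild-type ZEB1 and 0.899 (0.774 to 1.04) with empty vector. PMS2 to MLH3 was 2.11 (1.76 to 2.53), 2.20 (1.83 to 2.65) and 2.44 (2.06 to 2.90) in the same libraries. The ratio of PMS2 to PMS1 in K80R over that in wild type was 0.965 (0.757 to 1.23), and for wild type over empty vector it was 1.16 (0.925 to 1.46). That of PMS2 to MLH3 was 0.958 (0.738 to 1.245) and 0.900 (0.698 to 1.16) in these comparisons. For K80R over empty vector, PMS2 to PMS1 gave 1.12 (0.896 to 1.41) and PMS2 to MLH3 gave 0.863 (0.6715 to 1.11). These intervals of the ratios with PMS2 include 1 and still allow differences of more than 1.2-fold. They leave out the reads of its near-identical copies. With those reads added, PMS2 to MLH3 was 4.36 with K80R, 5.25 with wild-type ZEB1 and 6.08 with empty vector, and no interval was taken for their change between libraries.

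**Figure D4:**
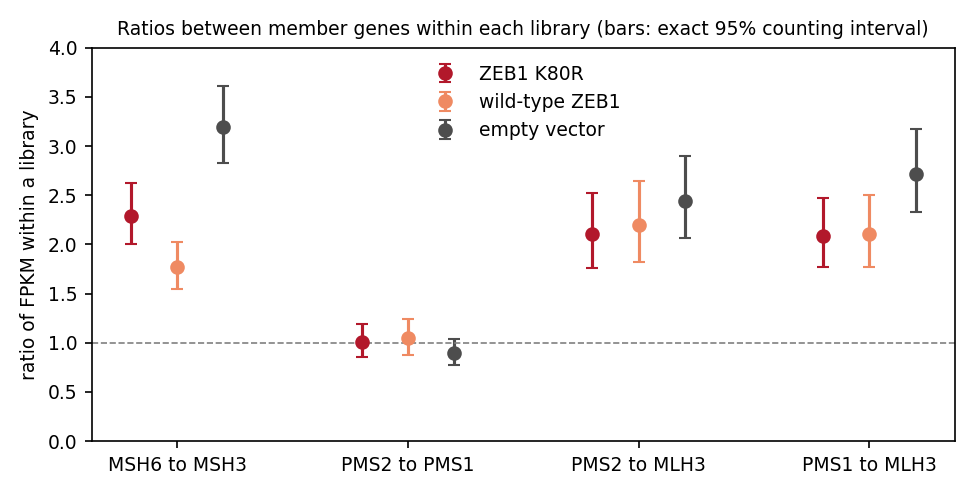
Ratios of FPKM between pairs of member genes within each library, with exact 95% counting intervals and a dashed line at 1. MSH6 to MSH3 stands at 2.29 with ZEB1 K80R, 1.77 with wild-type ZEB1 and 3.19 with empty vector, while PMS1 to MLH3 stands at 2.09, 2.10 and 2.72.

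In the order of levels per length, MSH6 came first and MLH3 last in every library. MSH6 was above the next gene by 2.06-fold (1.80 to 2.37) with ZEB1 K80R, 1.69-fold (1.47 to 1.96) with wild-type ZEB1 and 2.41-fold (2.18 to 2.67) with empty vector. PMS2, PMS1 and MSH3 followed in that order in both overexpression libraries, with no neighbouring pair separated by its counting interval. With empty vector the order was PMS1, PMS2 and MSH3, and only PMS2 and MSH3 were separated, by 1.19-fold (1.01 to 1.40). MSH3 was above MLH3 by 1.90-fold (1.59 to 2.27) with K80R, 2.10-fold (1.76 to 2.52) with wild-type ZEB1 and 2.05-fold (1.73 to 2.43) with empty vector. MSH6 was higher than 65.3%, 56.6% and 72.6% of the 12605 genes in the ZEB1 K80R, wild-type ZEB1 and empty vector libraries, and MLH3 higher than 20.1%, 18.6% and 18.5%.

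Levels between members depend on the lengths used. The deposited gene length equals the union of all exons in GENCODE release 29 for all 5 members. For MSH6 it is 10993 bases, which is 2.69 times the longest coding sequence of 4080 bases, while for MSH3 it is 4709 bases, 1.38 times the 3411 coding bases. Of the MSH6 exon bases, 1785 are shared with FBXO11, a ubiquitin ligase gene on the opposite strand whose tail overlaps that of MSH6. FBXO11 stood at 7.32 FPKM with K80R, 6.59 with wild-type ZEB1 and 6.43 with empty vector. Its difference of log2(FPKM + 1) from empty vector was 0.16 with K80R and 0.03 with wild-type ZEB1, and −0.22 and −0.37 with the libraries at the same sum of FPKM. The strand setting of the counting is not given, so reads of the shared 16.24% of MSH6 exon bases cannot be told apart from those of FBXO11. Lengths do not enter a ratio of the same gene between libraries.

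The reads of PMS2 are uncertain too, because chromosome 7 carries near-identical partial copies of it. Of the 50-base windows in PMS2 transcripts, 22.98% occur in transcripts of other genes, led by the pseudogene PMS2CL with 19.07%, and of the 100-base windows 10.8% do, all in PMS2CL. At 100 bases these shares were 11.88% for MSH6 (FBXO11), 4.75% for MSH3, 0.06% for PMS1 (ORMDL1) and 0% for MLH3. The 11 copies named PMS2CL or PMS2P in the table held 261 reads with ZEB1 K80R, 329 with wild-type ZEB1 and 445 with empty vector, so that PMS2 took 48.3%, 41.9% and 40.2% of the reads on itself and its copies. PMS2CL (chromosome 7, 6710128 to 6753862, plus strand) stood at 2.13 FPKM with K80R, 3.25 with wild-type ZEB1 and 3.41 with empty vector. With the reads of all copies added to PMS2, the difference of log2(FPKM + 1) for K80R against empty vector was −0.28 in place of −0.03.

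PMS1 and PMS2 begin beside a gene on the opposite strand, and these neighbours had other ratios. ORMDL1, a regulator of sphingolipid synthesis that starts 286 bases from PMS1, stood at 14.1 FPKM with K80R, 11.5 with wild-type ZEB1 and 6.08 with empty vector. Its ratio to empty vector was 2.31 (2.04 to 2.62) with K80R and 1.89 (1.66 to 2.15) with wild-type ZEB1, where those of PMS1 were below 1. AIMP2, a scaffold of the tRNA synthetase complex that starts 120 bases from PMS2, stood at 15.1, 10.9 and 8.08 FPKM with K80R, wild-type ZEB1 and empty vector. ACYP1, an acylphosphatase gene near MLH3 on the same strand, stood at 2.12, 2.48 and 3.59 FPKM, from 52, 63 and 105 reads. None of these 3 genes, nor FBXO11, was past 1.5-fold for K80R against wild type. ORMDL1 was higher by that measure for wild type against empty vector, and ORMDL1 and AIMP2 for K80R against empty vector. At the same sum of FPKM the differences from empty vector were 0.70 with K80R and 0.41 with wild-type ZEB1 for ORMDL1, and 0.43 with K80R and −0.02 with wild-type ZEB1 for AIMP2.

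The genes that act after the MutS and MutL complexes were measured too. They are the exonuclease EXO1, the sliding clamp PCNA, its loader RFC, the single-strand binding protein RPA, DNA polymerase delta, the ligase LIG1 and the cofactor HMGB1, 16 genes in all. For K80R against wild type, 1 of 16 was at least 1.5-fold higher, where 4.42% of all genes were, and none was lower. It was EXO1, at 6.47 FPKM with K80R and 2.98 with wild-type ZEB1, a ratio of 2.18 (1.81 to 2.63). EXO1 stood at 4.47 FPKM with empty vector, between the other two. The median of the 16 was 0.11 in that comparison.

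For wild type against empty vector, 1 of 16 was lower, where 11.1% of all genes were, and none was higher, where 14.2% were, with a median of −0.16. The lower one was POLD1, the catalytic subunit of polymerase delta, at 12.9 FPKM with wild-type ZEB1 and 20.4 with empty vector, a ratio of 0.633 (0.582 to 0.687). At the same sum of FPKM, 8 of 16 were lower, where 4204 of 12665 genes were. For K80R against empty vector 3 were lower, where 13.0% of all genes were, and 1 was higher, where 12.6% were, and the median was −0.04. The lower ones were POLD4, at 2.26 and 5.35 FPKM with K80R and empty vector, RPA3, at 4.13 and 8.28, and POLD1, at 12.5 and 20.4. The higher one was POLD3, at 3.04 and 1.68 FPKM, with a difference of 0.29 at the same sum. PCNA, the most abundant of the 16, stood at 116 FPKM with K80R, 103 with wild-type ZEB1 and 144 with empty vector, the same order as MSH6.

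Genes of the replication helicase and of origin licensing were among those lower with wild-type ZEB1 than with empty vector. Of 14, namely MCM2 to MCM7, MCM10, CDC45, the 4 GINS subunits, CDT1 and CDC6, 7 were at least 1.5-fold lower with wild-type ZEB1 than with empty vector, beside 11.1% of all genes. None was higher, beside 14.2%. At the same sum of FPKM 11 of the 14 were lower, beside 4204 of 12665 genes. GINS1 stood at 5.04 FPKM with wild-type ZEB1 and 11.6 with empty vector, MCM3 at 18.5 and 39.4, and GINS4 at 1.76 and 4.08. MCM5, MCM7 and CDT1 were above 0, MCM5 at 13.8 FPKM with wild-type ZEB1 and 9.81 with empty vector, but MCM7 and CDT1 were at −0.12 and −0.32 at the same sum of FPKM. For K80R against wild type all 14 were above 0, with a median of 0.38, beside a median of −0.02 over all genes. With mitochondrial genes left out of the sum these medians were 0.49 and 0.11. Of the 14, on the deposited scale, 2 were at least 1.5-fold higher, beside 4.42% of all genes. They were MCM10 at 6.07 and 3.28 FPKM and GINS4 at 3.21 and 1.76. The median of the 14 was −0.57 for wild type against empty vector, beside −0.72 for MSH6 alone and −0.11 for the 5 members. For K80R against empty vector it was −0.26, beside −0.38 for MSH6 and −0.03 for the 5 members. There 2 of 14 were at least 1.5-fold lower, beside 13.0% of all genes, and none was higher, beside 12.6%. At the same sum of FPKM 8 were lower, beside 4173 of 12665 genes. A lower share of replicating cells and less RNA per cell cannot be told apart in these bulk values.

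**Figure D5:**
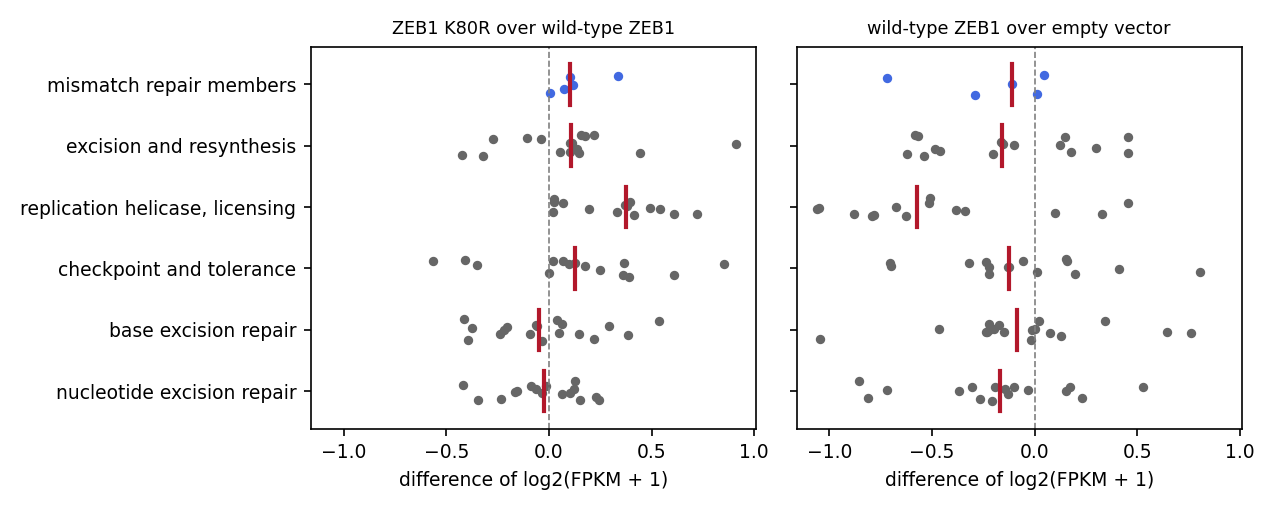
Difference of log2(FPKM + 1) of each gene, grouped by repair or replication list, with a red line at each list's median and a dashed line at 0. The replication helicase genes have medians of 0.38 on the left and −0.57 on the right, and the mismatch repair genes, in blue, of 0.10 and −0.11.

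Other repair and checkpoint genes had medians nearer to 0 on the deposited scale. Of all genes, 14.2% were past 1.5-fold higher and 11.1% lower for wild type against empty vector, 12.6% and 13.0% for K80R against empty vector, and 4.42% and 5.18% for K80R against wild type. Of 18 base excision repair genes, none was past 1.5-fold for K80R against wild type. For wild type against empty vector 2 were higher and 1 lower, with a median of −0.08, and for K80R against empty vector 1 was higher and 2 were lower, with a median of 0.02. At the same sum of FPKM none was higher and 8 were lower for wild type against empty vector, and none and 6 for K80R against empty vector. Of 12665 genes, 750 were then higher and 4204 lower for wild type, and 695 and 4173 for K80R. FEN1, the flap endonuclease shared with replication, stood at 46.2 FPKM with K80R, 39.5 with wild-type ZEB1 and 82.6 with empty vector. Of 20 nucleotide excision repair genes 16 reached a mean of 1 FPKM, of which none was past 1.5-fold for K80R against wild type, while 3 were lower for wild type against empty vector and 4 for K80R against empty vector. The medians were −0.02, −0.17 and −0.17. At the same sum 8 were lower in each comparison with empty vector, where 4204 (wild type) and 4173 (K80R) of 12665 genes were. On the deposited scale the lower genes of this list in wild type were the damage sensor XPA and the TFIIH subunits GTF2H2 and GTF2H3, the last at 16.0 FPKM with wild-type ZEB1 and 28.9 with empty vector. GTF2H2 lies in a duplicated region, so its value is uncertain.

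Of 15 checkpoint and damage tolerance genes, 2 were at least 1.5-fold higher with K80R than with wild-type ZEB1, where 4.42% of all genes were. None was lower, where 5.18% were, and the median was 0.12. The 2 higher ones were CLSPN, the claspin gene of the replication checkpoint, at 5.56 and 2.64 FPKM, and RAD18, a ubiquitin ligase of lesion bypass, at 6.17 and 3.69. For wild type against empty vector MAD2L2 was higher and 2 were lower, CLSPN and FAN1, a nuclease that acts with mismatch repair proteins at repeats, at 3.53 and 6.36 FPKM. The median was −0.13, and of all genes 14.2% were higher and 11.1% lower. MAD2L2 was at 0.42 at the same sum of FPKM, under 1.5-fold, and 5 of the 15 were then lower, where 4204 of 12665 genes were. For K80R against empty vector 1 was lower, the alkyl transferase gene MGMT, where 13.0% of all genes were. None was higher, where 12.6% were, and the median was 0.15. At the same sum 3 were lower, where 4173 of 12665 genes were. The meiotic MutS genes MSH4 and MSH5 did not reach a mean of 1 FPKM. MSH4 had 8 reads with K80R, 2 with wild-type ZEB1 and 5 with empty vector. MSH5 had 65, 56 and 31 reads, and its ratio to empty vector was 2.50 (1.61 to 3.97) with K80R and 2.08 (1.32 to 3.34) with wild-type ZEB1.

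The genes nearest to each member were sought over the pair of differences from empty vector, as the distance between points in log2(FPKM + 1). These points share the empty vector library. For MSH6 the nearest of 10371 protein-coding genes were RNF169, a ubiquitin-binding protein of the DNA damage response, at 4.87, 3.63 and 6.65 FPKM with K80R, wild-type ZEB1 and empty vector, then MED22 and CDHR5. Within a distance of 0.1 of MSH6 lay 48 genes, or 0.463% of them. For the other members this number was 423 for MSH3, 401 for PMS2, 341 for PMS1 and 412 for MLH3, and their nearest genes were COPS3, TBCEL, BRF2 and NUP62. With 3 libraries such likeness is a description only.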

How the data were processed

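RNA was sequenced from 3 cultures labelled as the line HCT116, 1 library per group, the group being the genotype in the labels. The tools named by the submitters' processing notes are featureCounts 1.5.0-p3, CASAVA and DESeq2 1.20.0, with the build hg38 and no roles. Neither an aligner nor a strand setting is given in the sources used here. Values were deposited as FPKM per gene with gene lengths and coordinates, which were matched to GENCODE 29 (GRCh38).

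FPKM multiplied by gene length came out as whole multiples of 1 step for 100.0% of genes above 0 (tolerance 0.05 reads). These recovered reads served for the exact 95% counting intervals. The check of these on simulated reads with counting error alone covers the calculation and not the errors of real libraries. The recovered reads also gave the printed reads and read sums, the mitochondrial shares and the numbers of genes with 1 read. The values of PMS2 with its copies and the ratios per coding length came from them too. Reads copied from 1 molecule are not independent, so intervals can be too narrow. A count of 0 allows up to 3 reads.

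Differences were taken as log2(FPKM + 1), which understates those of low genes, over genes that averaged at least 1 FPKM. Genes past 1.5-fold in FPKM + 1 were counted. Such a gene can pass the minimum through 1 library alone. There was no test between groups, since each held 1 library.

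Named genes were all members, the genes past 1.5-fold among neighbours and downstream genes, up to 3 of each other list, and the nearest 3 to each member. PCNA, FBXO11, MCM5 and the neighbours within range were named outside that rule. The members and the 10 lists were chosen with earlier results of these data known. A neighbouring gene and 1 promoter window are not reported here. Promoter sequences are from RefSeq (GRCh38.p14). All 5 members matched. The planned search of protein motifs was not run, because no protein table was used here. Python 3.11.15, pandas 2.3.3 and scipy 1.17.1 were used.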

Additional observations from a re-analysis of the deposited data

How the results depend on the processing

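With 1 library per group, no library could be left out. No paired analysis was possible because each group held 1 library. Scaling each library to the mean of the sums of FPKM, a setting chosen after seeing the data, gave members' medians against empty vector of −0.49 with wild-type ZEB1 and −0.40 with K80R, with 2 members (MSH6 and PMS1) and 1 member (MSH6) past 1.5-fold. Of 12665 genes, 750 were then higher and 4204 lower with wild-type ZEB1, and 695 and 4173 with K80R. Scaling to TPM, the planned form of a common sum, also gives the 1 that is added less weight and lets 17153 genes pass the minimum. It gave 1934 higher and 1470 lower genes for K80R against wild type, 2044 and 6471 for wild type against empty vector, and 2166 and 6166 for K80R against empty vector. The members' medians were −0.56 and −0.45 against empty vector for wild type and K80R there, with 2 members past 1.5-fold in each (MSH6 and PMS1). MSH3 was at −0.38 and −0.35 and MLH3 at −0.39 and −0.24, so the signs of MSH3 and MLH3 depend on the scaling. With the same scaling but no mitochondrial genes in the sum, MSH6 was at 0.52 for K80R against wild type, −0.85 for wild type against empty vector and −0.33 for K80R against empty vector, and PMS2 at 0.04 in the last of these. With a minimum mean of 5 FPKM MSH6 alone remained, at 0.34, −0.72 and −0.38. With the lower of the planned fold thresholds, 1 member was past it in each comparison of the K80R library. Of 12605 genes, 1742 were then higher and 2266 lower for K80R against wild type, and 3200 and 3186 for K80R against empty vector.

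Reads per longest coding length, a setting chosen after seeing the data, gave MSH6 to MSH3 as 4.47, 3.46 and 6.23 in ZEB1 K80R, wild-type ZEB1 and empty vector, in the same order as per gene length. It gave PMS2 to PMS1 as 0.787, 0.816 and 0.701 and PMS2 to MLH3 as 1.67, 1.75 and 1.94. With the reads of its copies, PMS2 to PMS1 was 2.09, 2.50 and 2.24, and PMS2 to MLH3 was 4.36, 5.25 and 6.08. The coding length of the RefSeq proteins was not run. Among the 16 downstream genes the count past 1.5-fold for wild type against empty vector was 5 with a pseudocount of 0.1 and 9 with that planned common sum, in place of 1. All genes moved too. With that pseudocount 2275 of 12605 were higher and 1932 lower, and with the common sum 2044 of 17153 were higher and 6471 lower, in place of 1786 and 1400 of 12605. A scaling by the median of ratios left the counts of members past 1.5-fold as they were, with 4 members above 0 for K80R against wild type, in place of 5.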

Other observations

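Some repair genes outside mismatch repair had another order of libraries than MSH6. MGMT, which removes methyl groups from guanine and whose loss makes cells depend on mismatch repair for the response to alkylating drugs, stood at 1.18 FPKM from 56 reads with ZEB1 K80R, 2.22 from 109 reads with wild-type ZEB1 and 2.76 from 156 reads with empty vector. K80R stood to wild type as 0.532 (0.378 to 0.741), where the deposited values gave ratios of 1.01 to 1.30 for the 5 mismatch repair genes. In the base excision pathway the polymerase gene POLB stood at 4.35, 4.11 and 2.27 FPKM with K80R, wild-type ZEB1 and empty vector, and the scaffold gene XRCC1 at 11.1, 14.9 and 8.37, so that both were higher in the overexpression libraries than with empty vector on the deposited scale. With the libraries at the same sum of FPKM, POLB was at 0.39 and 0.31 on the log2(FPKM + 1) scale for K80R and wild-type ZEB1 against empty vector, and XRCC1 at −0.03 and 0.34. The glycosylase gene NTHL1 stood at 6.52, 9.01 and 12.8 FPKM, and the error-prone polymerase subunit MAD2L2 at 6.17, 8.51 and 4.43. At the same sum NTHL1 was at −1.28 and −0.89 for K80R and wild-type ZEB1 against empty vector, and MAD2L2 at 0.03 and 0.42. These genes were picked with their values known, and no replicate exists for any of the differences.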
